A study of Homo sapiens with 8 samples.

Results

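The 32 genes described here encode the enzymes of glycolysis, the carriers that bring glucose in and take lactate out, and the enzyme that commits pyruvate to the mitochondrion together with the kinases that switch it off. They are a list of named genes, chosen by function with earlier results of these data known. All 32 were among the 35238 gene symbols of the count table, and all 32 were among the 15085 symbols that passed the filter on low counts. RNA was sequenced from MP38, a BAP1-mutant human uveal melanoma cell line, in 4 groups of 2 wells each. The control group received 0.1% DMSO, and the others received 40 nM romidepsin, 40 nM quisinostat or 1200 nM mivebresib, all in 0.1% DMSO for 24 h. Romidepsin and quisinostat inhibit histone deacetylases (HDACs), and mivebresib blocks the bromodomains of the BET proteins that read acetylated histones. All wells came from 1 cell line, so the p-values below measure the spread between wells of that line.

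Glycolysis splits glucose into pyruvate in the cytosol. Several steps can be run by more than 1 isozyme, encoded by separate genes that differ in regulation and in the tissues that use them. Pyruvate then becomes lactate, through lactate dehydrogenase, or enters the mitochondrion, where the pyruvate dehydrogenase complex turns it into acetyl-CoA. The kinases PDK1 to PDK4 phosphorylate that complex and turn it off. Transformed cells commonly run glycolysis at a high rate even with oxygen present.

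The letters upstream of 3 of the kinase genes are shown because all 3 rose with quisinostat and PDK4 changed most of all members that passed the test. PDK3 rose with quisinostat too, and its window, which overlaps the GENCODE span of its gene, is not printed. Each run holds the 250 bases before the RefSeq start (GRCh38.p14), 5′ to 3′ on the gene's own strand, and none overlaps the GENCODE span of its gene. Capitals mark the GC box, GGGCGG, on either strand. They also mark the core of the hypoxia response element, ACGTG, and its complement. The TATA box is marked likewise where its letters, TATAAA, occur.
PDK4, chr7:95596517-95596766, minus strand: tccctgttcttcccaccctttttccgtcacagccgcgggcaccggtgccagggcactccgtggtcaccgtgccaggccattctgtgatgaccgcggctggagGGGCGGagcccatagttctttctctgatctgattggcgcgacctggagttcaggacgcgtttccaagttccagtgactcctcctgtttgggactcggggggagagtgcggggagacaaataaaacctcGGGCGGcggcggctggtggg
PDK2, chr17:50094487-50094736, plus strand: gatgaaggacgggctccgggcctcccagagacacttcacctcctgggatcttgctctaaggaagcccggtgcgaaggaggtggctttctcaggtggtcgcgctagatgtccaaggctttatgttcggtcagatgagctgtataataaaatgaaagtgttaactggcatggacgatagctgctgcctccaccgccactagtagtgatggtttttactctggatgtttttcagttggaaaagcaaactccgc
PDK1, chr2:172555123-172555372, plus strand: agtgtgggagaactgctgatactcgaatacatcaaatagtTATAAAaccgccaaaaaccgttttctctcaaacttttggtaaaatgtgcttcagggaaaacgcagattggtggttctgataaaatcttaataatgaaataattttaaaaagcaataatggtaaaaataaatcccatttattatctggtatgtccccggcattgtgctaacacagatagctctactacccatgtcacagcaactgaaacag
The PDK4 window held 2 GC boxes, the PDK1 window held 1 TATA box, and the PDK2 window held none of the motifs. The PDK3 window, not printed, held 2 GC boxes and 1 hypoxia response core. RefSeq windows were matched for 29 members. A GC box stood in 20 of these windows (69.0%), against 42.3% of 27305 promoter windows, and ACGTG stood in 10 (34.5%), against 18.7%. The E-box CACGTG, which contains ACGTG, stood in 4 (13.8%, against 6.5%), and TATAAA in 4 (13.8%, against 11.1%). The members' windows were also richer in G and C, with a median of 68.4% against 58.0%. These matches describe letters and not binding.

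Total counts ran from 28483235 to 29359024 per library. The 2 DMSO libraries differed more from each other than the libraries of any other group did (chi-square per degree of freedom 58.15, against 9.521 to 9.785). Among the members this showed most in the 4 transporters, whose log2 level was higher in DMSO 2 than in DMSO 1 by 0.54 for SLC2A1, 0.60 for SLC2A3, 0.61 for SLC16A1 and 0.52 for SLC16A3. Markers of the melanocytic lineage summed to between 3563 and 5452 CPM (counts scaled to the TMM-adjusted library size) in all libraries, most of it TYRP1, which passed the test with no drug. Of the 6 tested, romidepsin lowered 1, quisinostat 3 and mivebresib 4, and DCT stood at or near 0 throughout. MITF fell by 1.39 on the log2 scale with quisinostat and by 1.47 with mivebresib (adjusted p = 4.19e-06 and 4.67e-06), SOX10 by 0.92 and 1.93, and MLANA by 1.05 and 1.33. Immune markers summed to at most 1.203 CPM, with 2 of 6 at 0 in every library. Endothelial markers summed to between 0.6023 and 0.9132 CPM with DMSO, 3.031 and 3.572 with romidepsin, 5.16 and 5.827 with quisinostat, and 1.134 and 1.403 with mivebresib, with 1 of 4 at 0 throughout. Epithelial markers summed to between 2.594 and 3.932 CPM with DMSO, 3.194 and 3.65 with romidepsin, 6.783 and 8.516 with quisinostat, and 5.852 and 6.042 with mivebresib, with 1 of 6 at 0 throughout. Fibroblast markers summed to between 8.193 and 10.61 CPM with mivebresib, 14.17 and 22.1 with DMSO, 20.32 and 24.63 with romidepsin, and 34.68 and 35.46 with quisinostat. Their part in the results was not tested.

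In control cells the members spanned a wide range of levels. Expressed per kilobase of merged exons, GAPDH stood highest at 1403 ± 182.2 CPM per kb (SD, n = 2), followed by ENO1 (833 ± 5.26), ALDOA (816 ± 71.9) and PKM (745 ± 22.6). The order of ENO1 and ALDOA did not hold beyond their spread. PDK4 (0.795 ± 0.0112) and PGAM2 (0.165 ± 0.234) stood lowest. The length of PDK1 includes a very long last exon, so its level per kb (1.22 ± 0.190) is low for its counts. Together the 32 genes took 1.534% and 1.427% of all counts with DMSO. They took 1.272% and 1.345% with romidepsin, 1.241% and 1.177% with quisinostat, and 1.654% and 1.526% with mivebresib.

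In bulk RNA, a change in the make-up of the culture and a change of RNA per cell cannot be told apart. Each drug changed some members in each direction (edgeR quasi-likelihood test, Benjamini-Hochberg adjusted p under 0.05 over all tested genes). Romidepsin raised 7 members and lowered 6, where 15.2% of all tested genes were higher and 15.8% lower. Quisinostat raised 9 and lowered 14, against 28% and 25.1% of all genes. Mivebresib raised 5 and lowered 8, against 22.2% and 24.1%. Median log2 fold changes (FC) of the members were 0.05, -0.18 and -0.04 for the 3 drugs in that order, and those of all genes were -0.012, -0.0036 and 0.0067. Past both an adjusted p of 0.05 and a log2 FC of 1.5 in size stood only PDK4, which rose with romidepsin (3.77% of all genes rose this far and 0.312% fell) and with quisinostat (11.2% and 1.03%). No member passed both with mivebresib (3.96% and 4.36%), for which edgeR called 13 members on adjusted p alone. PGAM2 had a log2 FC of 1.98 with mivebresib but did not pass the test (adjusted p = 0.0835).

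**Figure D1:**
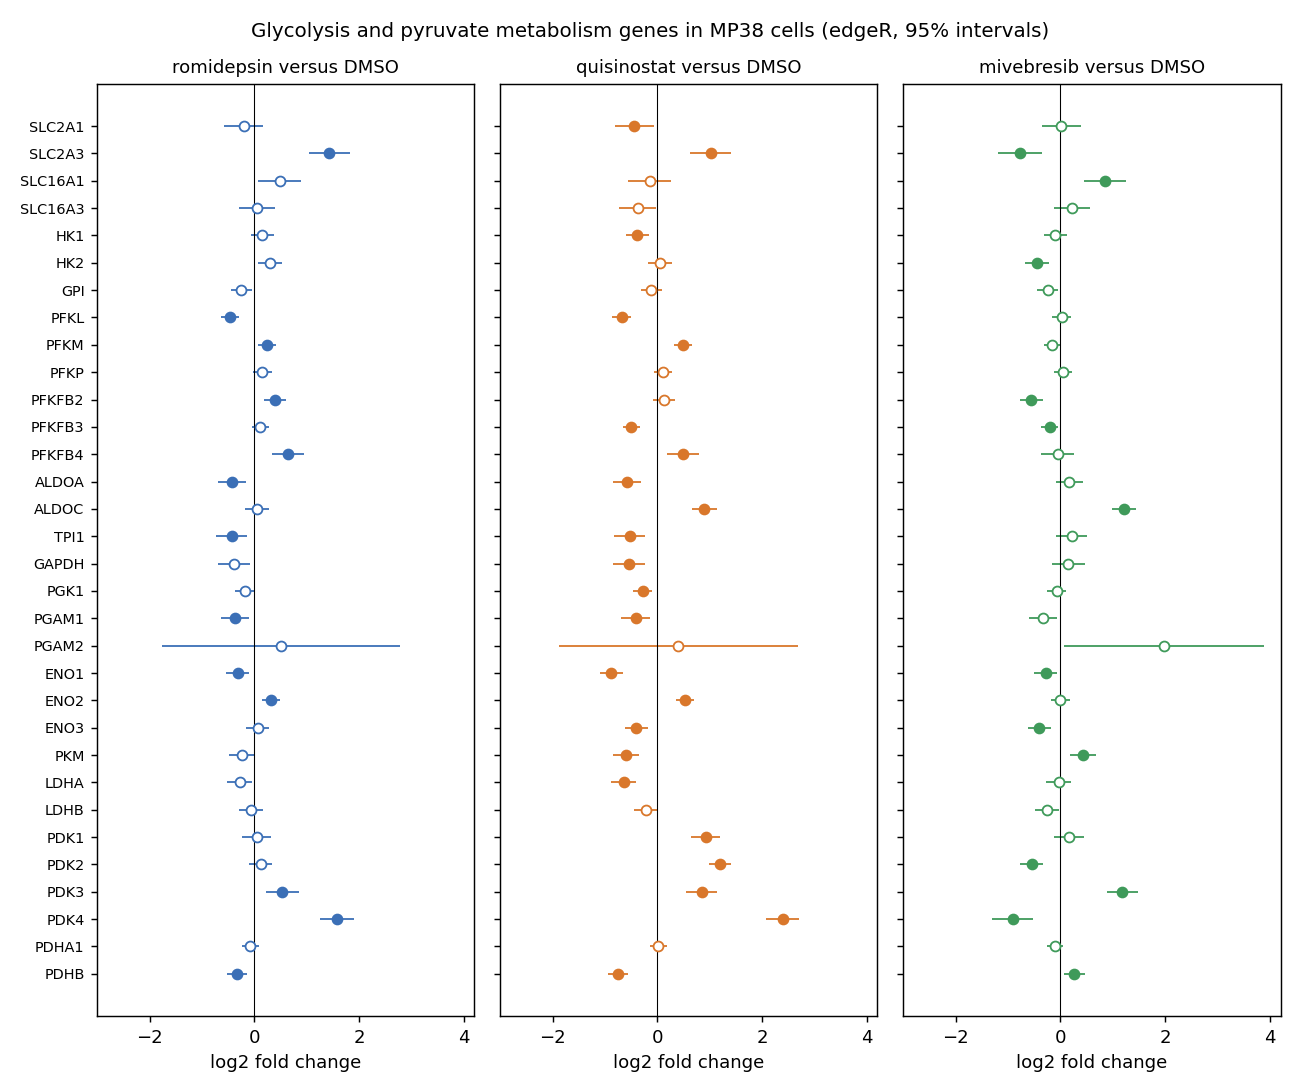
Log2 fold change of each of the 32 genes (rows, in pathway order) with each drug against DMSO (panels), with 95% intervals from edgeR and 2 libraries a group. Filled points passed the adjusted p threshold of 0.05, which 23 members did for quisinostat and 13 for each of the other drugs. PGAM2, with 0 to 18 counts a library, has the widest intervals.

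These counts depended on the scaling and on single libraries. Without TMM factors the split with quisinostat was 12 higher and 7 lower, and with romidepsin 9 higher and 2 lower, and that scaling moved the median of all genes to 0.20 and 0.06. Upper-quartile factors gave 10 and 10 with quisinostat, and 10 and 2 with romidepsin, and moved the median of all genes to 0.126 and 0.0716. Leaving out either romidepsin or either quisinostat library left 1 member called lower with romidepsin, and leaving out quisinostat 2 left 8 called lower with quisinostat. Without DMSO 2, 12 members were called higher with romidepsin, and without romidepsin 1 or romidepsin 2 there were 4 and 3. Without mivebresib 1, 3 members were called higher and 5 lower with mivebresib, and without mivebresib 2 there were 5 lower. Of the 49 calls against DMSO, 26 held in each of the 16 other settings that gave a fold change, 4 of them with romidepsin, 15 with quisinostat and 7 with mivebresib. With romidepsin these were the calls of PFKL, PFKFB4, SLC2A3 and PDK4.

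Of the kinases of pyruvate dehydrogenase, all 4 rose with quisinostat, 2 rose with romidepsin, and with mivebresib 1 rose further than with either HDAC inhibitor while 2 fell. Of all tested genes, 28% were higher with quisinostat, 15.2% with romidepsin and 22.2% with mivebresib, and 24.1% were lower with mivebresib. The kinases were grouped after the values were seen, and nothing particular to them is read from these counts. PDK4, the kinase best known for its induction on fasting, stood at 2.87 and 2.81 CPM with DMSO. It stood at 8.83 and 8.13 with romidepsin, 13.9 and 15.9 with quisinostat, and 1.65 and 1.37 with mivebresib. The 4 groups did not overlap. The rise was 2.98-fold for romidepsin (log2 FC 1.58 ± 0.142 SE, adjusted p = 0.000171) and 5.24-fold for quisinostat (2.39 ± 0.138, adjusted p = 4.78e-06), and mivebresib lowered PDK4 (-0.91 ± 0.174, adjusted p = 0.00294). Its counts were modest, between 38 and 498 a library.

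PDK2, a broadly expressed kinase of the same family, moved in opposite directions with quisinostat and mivebresib. It stood at 17.8 and 17.0 CPM with DMSO, 18.6 and 19.2 with romidepsin, 41.1 and 38.7 with quisinostat, and 12.7 and 11.1 with mivebresib. The rise with quisinostat was 2.29-fold (log2 FC 1.19 ± 0.0934, adjusted p = 2e-05), and the log2 FC was -0.55 ± 0.0983 with mivebresib (adjusted p = 0.0021) and 0.12 ± 0.0953 with romidepsin (adjusted p = 0.373). A stretch of PDK2 is overlapped on the other strand by SAMD14, which averaged 88.5 counts a library. PDK3 stood at 7.05 and 5.81 CPM with DMSO, 8.69 and 9.99 with romidepsin, 11.4 and 11.8 with quisinostat, and 15.3 and 13.9 with mivebresib. It was the one kinase that passed the test upward with every drug, by 0.54 ± 0.134 (adjusted p = 0.0175), 0.84 ± 0.132 (adjusted p = 0.000842) and 1.18 ± 0.132 (adjusted p = 0.000164) on the log2 scale, though the romidepsin call was lost in 2 other settings. PDK1, a target of the hypoxia-inducible factors, stood at 19.3 and 15.5 CPM with DMSO, 17.7 and 18.2 with romidepsin, 33.3 and 32.6 with quisinostat, and 18.0 and 20.9 with mivebresib. Only its quisinostat difference passed (0.92 ± 0.12, adjusted p = 0.0003).

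The 2 measured subunits of the pyruvate dehydrogenase E1 enzyme, which these kinases act on, behaved unlike each other. PDHA1, the subunit that is phosphorylated, did not pass the test with any drug, its log2 FC lying between -0.11 and 0.02. PDHB, the partner subunit, stood at 95.3 and 83.2 CPM with DMSO, 70.5 and 71.5 with romidepsin, 54.1 and 51.7 with quisinostat, and 106 and 108 with mivebresib. Both HDAC inhibitors lowered it, romidepsin by a log2 FC of -0.33 ± 0.0854 (adjusted p = 0.0202) and quisinostat by -0.75 ± 0.086 (adjusted p = 0.000152). Mivebresib raised it (0.27 ± 0.085, adjusted p = 0.0313). The romidepsin and mivebresib calls were lost in 8 and 9 of the 16 other settings, at -0.21 without DMSO 1 and 0.17 without DMSO 2.

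**Figure D2:**
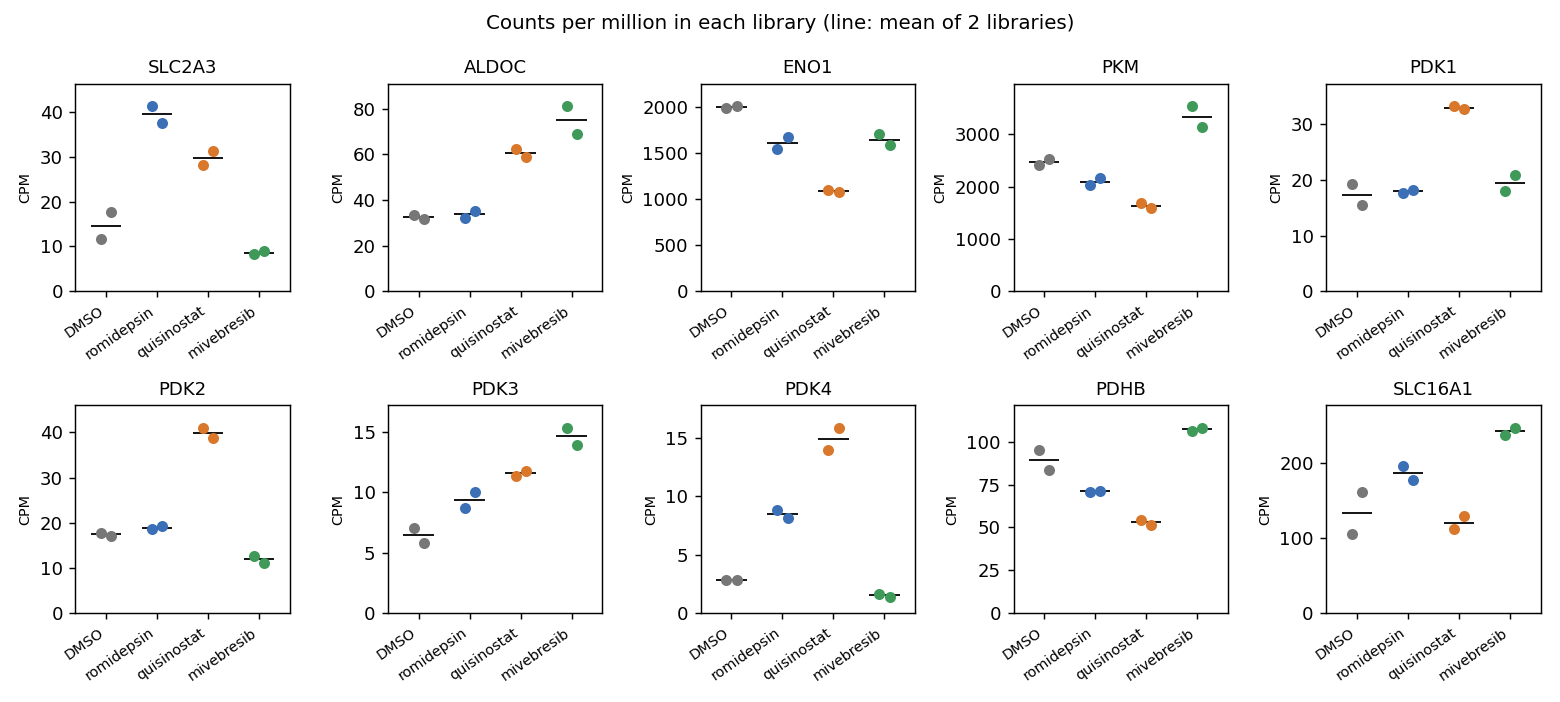
Levels in CPM (vertical axes from 0) of 10 members in each of the 8 libraries, as points, with the mean of each group of 2 as a line. PDK4 runs from 1.37 CPM with mivebresib to 15.9 with quisinostat, PDK3 is higher in every drug library than in either DMSO library, and the 2 DMSO points of SLC2A3 and SLC16A1 stand apart.

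Among the carriers, SLC2A3 encodes GLUT3, the high-affinity glucose transporter of neurons. It stood at 11.6 and 17.6 CPM with DMSO, 41.3 and 37.5 with romidepsin, 28.0 and 31.2 with quisinostat, and 8.27 and 8.88 with mivebresib. Romidepsin raised it 2.7-fold (log2 FC 1.43 ± 0.171, adjusted p = 0.000646) and quisinostat 2.03-fold (1.02 ± 0.171, adjusted p = 0.00125). Mivebresib lowered it (-0.77 ± 0.184, adjusted p = 0.00891). That log2 FC was -1.04 without DMSO 1 and -0.44 without DMSO 2, and the call was lost without mivebresib 1 (adjusted p = 0.061). Both DMSO libraries lay between the HDAC inhibitor libraries and the mivebresib libraries. Reads of SLC2A3 can be shared with close copies, of which 3 pseudogenes in the table held 16 counts in all. Only pseudogenes named after SLC2A3 were looked for, and sharing with other related genes was not checked.

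SLC2A1, the gene of the widespread glucose transporter GLUT1, stood at 84.8 and 124 CPM with DMSO, 97.0 and 83.7 with romidepsin, 72.9 and 80.8 with quisinostat, and 108 and 103 with mivebresib. Its log2 FC of -0.44 ± 0.162 with quisinostat passed narrowly (adjusted p = 0.0484), and 13 of the 16 other settings did not call it (-0.15 without DMSO 2, adjusted p = 0.243). SLC16A1, which encodes the lactate carrier MCT1, stood at 106 and 161 CPM with DMSO, 196 and 177 with romidepsin, 112 and 129 with quisinostat, and 237 and 246 with mivebresib. It rose with mivebresib (0.86 ± 0.176, adjusted p = 0.00439), and that call held with either DMSO library left out. SLC16A3, the gene of the lactate exporter MCT4, did not pass with any drug (log2 FC from -0.37 to 0.22).

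The upper steps run from hexokinase to phosphofructokinase. Of 6 members, romidepsin raised 1 and lowered 1 (15.2% and 15.8% of all genes), quisinostat raised 1 and lowered 2 (28% and 25.1%), and mivebresib lowered 1 (24.1%). The groups by role were set after the values were seen, and nothing particular to a group is read from its counts. HK2, the inducible hexokinase, fell with mivebresib (-0.44 ± 0.101, adjusted p = 0.00712; -0.29 without DMSO 2), and HK1, the constitutive one, fell with quisinostat (-0.38 ± 0.0974, adjusted p = 0.0102), a call lost in 4 of the 16 other settings, both other scalings among them. The phosphofructokinase genes separated with both HDAC inhibitors. PFKL, the liver-type subunit, fell by 0.47 and 0.68 on the log2 scale with romidepsin and quisinostat (adjusted p = 0.00294 and 0.000155), while PFKM, the muscle-type subunit, rose by 0.24 and 0.48 (adjusted p = 0.0352 and 0.000705), the romidepsin call of PFKM being lost in 9 of the 16 other settings. PFKP, the platelet-type subunit, and GPI, which isomerises glucose 6-phosphate, passed with no drug (PFKP log2 FC 0.05 to 0.15, GPI -0.25 to -0.12).

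The bifunctional PFKFB enzymes set the level of fructose 2,6-bisphosphate, the main activator of phosphofructokinase. PFKFB4 rose with romidepsin (0.64 ± 0.133, adjusted p = 0.00784) and quisinostat (0.50 ± 0.134, adjusted p = 0.0131), from 5.56 and 5.41 CPM with DMSO to 8.59 and 8.54 with romidepsin. The quisinostat call was lost without quisinostat 1 (0.37, adjusted p = 0.102). PFKFB2 rose with romidepsin (0.39 ± 0.0937, adjusted p = 0.015), which was not called without either romidepsin library (adjusted p = 0.105 and 0.0582), and fell with mivebresib (-0.56 ± 0.0957, adjusted p = 0.00172). PFKFB3, the form with the strongest kinase activity, fell with quisinostat (-0.50 ± 0.0703, adjusted p = 0.00048). Its log2 FC of -0.20 with mivebresib passed (adjusted p = 0.0431) but was not called in 14 of the 16 other settings.

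In lower glycolysis, from aldolase to pyruvate kinase, quisinostat lowered 8 of 11 members and raised 2, where it lowered 25.1% of all genes and raised 28%. Romidepsin lowered 4 and raised 1 (15.8% and 15.2% of all genes), and mivebresib lowered 2 and raised 2 (24.1% and 22.2%). ALDOA, TPI1, GAPDH, PGK1, PGAM1, ENO1, ENO3 and PKM made up the 8 that fell with quisinostat, with log2 FC from -0.88 for ENO1 to -0.28 for PGK1. ENO1, the main enolase, stood at 1994 and 2012 CPM with DMSO, 1543 and 1679 with romidepsin, 1103 and 1074 with quisinostat, and 1705 and 1586 with mivebresib. Its fall with quisinostat (-0.88 ± 0.0975, adjusted p = 0.000132) held in each of the 16 other settings that gave a fold change. Its calls with romidepsin (-0.31, adjusted p = 0.0393) and mivebresib (-0.28, adjusted p = 0.0406) were lost in 11 and 10 of those 16. ALDOA (-0.58), ENO1 and PKM (-0.60) kept the quisinostat call in all of those settings, and TPI1, GAPDH, PGK1, PGAM1 and ENO3 lost it in at least 1. Limma on the authors' quantile-normalized score, which was read for calls alone, called 0 members lower with quisinostat. The scale of that score is not given and the share of all genes it called was not worked out. That count is therefore not read as a result about these members. Of the 4 called lower with romidepsin (ALDOA, TPI1, PGAM1 and ENO1), each lost the call in at least 5 other settings. Without DMSO 1 the log2 FC of PGAM1 was -0.20 with romidepsin and -0.27 with quisinostat, against -0.37 and -0.41 with all libraries. ENO3 overlaps PFN1 on the other strand, which averaged 13170 counts a library, so reads of the 2 genes may not be told apart. PFKM (with SENP1), PFKFB2 (with YOD1), TPI1 (with SPSB2) and SLC16A3 (with CSNK1D) have such neighbours too, at 691.6, 966.2, 287 and 2932 counts on average. Pseudogene copies in the table held few counts over all 8 libraries, 248 in 61 copies of GAPDH and 657 in 4 copies of TPI1.

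PKM, whose product makes pyruvate, moved in opposite directions with quisinostat and mivebresib. It stood at 2416 and 2521 CPM with DMSO, 2035 and 2160 with romidepsin, 1681 and 1585 with quisinostat, and 3543 and 3131 with mivebresib. Its log2 FC was -0.60 ± 0.107 with quisinostat (adjusted p = 0.00184) and 0.43 ± 0.107 with mivebresib (adjusted p = 0.0103). The mivebresib call was lost with only the 4 libraries of that comparison (adjusted p = 0.0836) and without mivebresib 1 (adjusted p = 0.0826). Gene-level counts do not separate its M1 and M2 splice forms. LDHA, the lactate-forming dehydrogenase subunit, fell with quisinostat (-0.64 ± 0.105, adjusted p = 0.00111), and LDHB passed with no drug (log2 FC from -0.26 to -0.06). PGAM2, the muscle phosphoglycerate mutase, held between 0 and 18 counts a library, with 8 and 0 in the DMSO libraries, and no change could be read at that depth.

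ALDOC, the brain-type aldolase, and ENO2 were the 2 genes of lower glycolysis that rose with quisinostat. ALDOC stood at 33.4 and 31.6 CPM with DMSO, 32.2 and 35.1 with romidepsin, 62.4 and 58.8 with quisinostat, and 81.2 and 68.9 with mivebresib. It rose 1.86-fold with quisinostat (0.90 ± 0.101, adjusted p = 0.000139) and 2.31-fold with mivebresib (1.21 ± 0.101, adjusted p = 3.89e-05), and romidepsin gave 0.05 ± 0.102 (adjusted p = 0.731). Its partner ALDOA, the main aldolase, stood at 2085 and 1841 CPM with DMSO, 1417 and 1507 with romidepsin, 1349 and 1280 with quisinostat, and 2353 and 2055 with mivebresib. The mivebresib libraries of ALDOA lay close to the DMSO range and those of both HDAC inhibitors lay under it. ENO2, the neuronal enolase, rose with romidepsin (0.32 ± 0.0766, adjusted p = 0.014) and quisinostat (0.53 ± 0.0766, adjusted p = 0.000543), from 87.0 and 83.7 CPM to 104 and 110 and to 127 and 120. The romidepsin call of ENO2 was lost in 3 of the 16 other settings, 2 of them without a romidepsin library (adjusted p = 0.0582 and 0.108). With mivebresib it stood at 84.8 and 85.6 CPM.

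Isozymes of 1 step were compared in 17 pairs. In 5 pairs both partners passed in opposite directions with quisinostat, in 2 pairs with romidepsin and in 0 with mivebresib. Of all genes, 28% were higher and 25.1% lower with quisinostat, 15.2% and 15.8% with romidepsin, and 22.2% and 24.1% with mivebresib. Some genes stand in more than 1 pair, and the counts were not compared with those of unrelated pairs. The 5 pairs with quisinostat were PFKL and PFKM, ALDOC and ALDOA, ENO2 and ENO1, PFKFB4 and PFKFB3, and SLC2A3 and SLC2A1. The first 3 pairs kept both calls in each of the 16 other settings that gave a fold change. Those with romidepsin were PFKL and PFKM, and ENO2 and ENO1, and each includes a call that was lost in 9 or more of the 16 settings. Per kb, PFKL made up 71.5% and 71.4% of PFKL and PFKM together with DMSO, 59.9% and 61.0% with romidepsin, 53.1% and 52.5% with quisinostat, and 75.1% and 72.6% with mivebresib. ENO2 made up 3.21% and 3.07% of ENO2 and ENO1 with DMSO, 4.86% and 4.74% with romidepsin, 8.05% and 7.81% with quisinostat, and 3.65% and 3.94% with mivebresib. ALDOC made up 1.86% and 1.99% of both aldolases with DMSO and 2.615% and 2.68% with romidepsin. It made up 5.18% and 5.15% with quisinostat and 3.92% and 3.81% with mivebresib. Shares are a description, with no test.

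**Figure D3:**
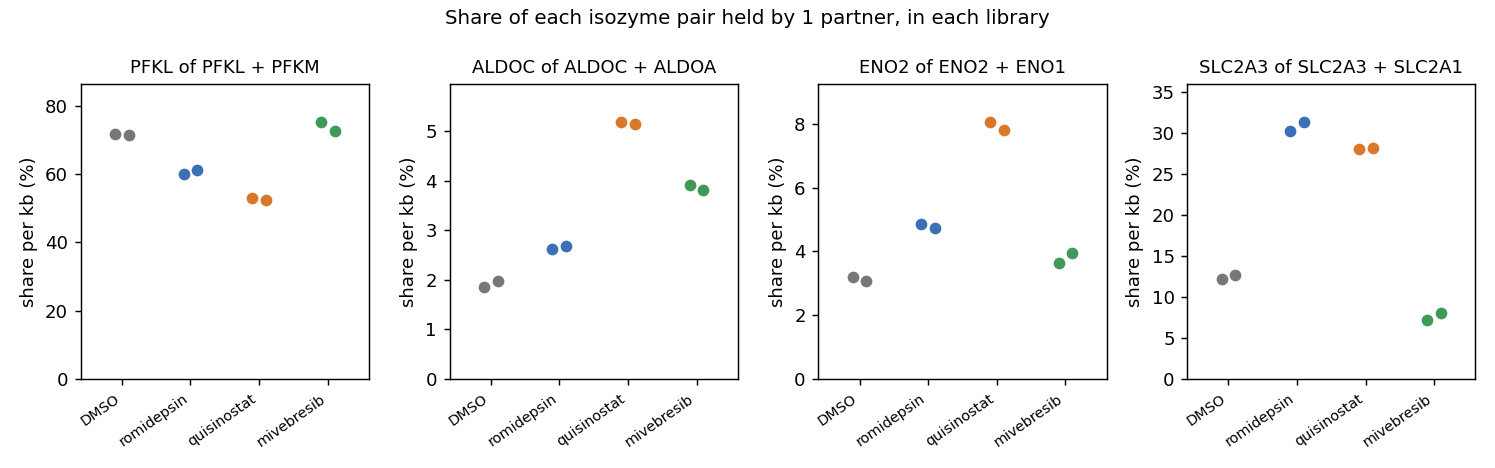
Share of the per-kb level of an isozyme pair held by the gene named first, in percent (vertical axes from 0), for 4 pairs in each of the 8 libraries, 2 points a group. The PFKL share falls from 71.5% and 71.4% with DMSO to 53.1% and 52.5% with quisinostat, and ENO2 and ALDOC reach 8.05% and 5.18% at most.

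The drugs were also compared directly. Between the HDAC inhibitors, both at 40 nM, quisinostat gave 5 members higher than romidepsin and 8 lower (21% and 14.6% of all genes). PDK2 was higher with quisinostat by 1.08 ± 0.0927 on the log2 scale (adjusted p = 0.00014), PDK1 by 0.88 ± 0.119 (adjusted p = 0.000986), ALDOC by 0.85 ± 0.101 (adjusted p = 0.000523) and PDK4 by 0.81 ± 0.122 (adjusted p = 0.00162). The count lower with quisinostat ran from 4 to 14 as single libraries were left out, at 14 without either DMSO library and at 4 without romidepsin 2. Mivebresib was used at another concentration, and against romidepsin 8 members were higher and 10 lower (23.7% and 25.2% of all genes), while against quisinostat 15 were higher and 9 lower (26.2% and 31.5%). Without TMM factors the last split was 10 and 12. PDK4 differed by -3.30 ± 0.151 between mivebresib and quisinostat (adjusted p = 1.52e-06), SLC2A3 by -1.79 ± 0.179 (adjusted p = 6.04e-05) and PDK2 by -1.74 ± 0.0963 (adjusted p = 2.9e-06). In the other direction stood PKM (1.03 ± 0.108, adjusted p = 7.78e-05), PDHB (1.02 ± 0.0862, adjusted p = 2.43e-05) and SLC16A1 (1.01 ± 0.177, adjusted p = 0.00136). The contrasts against DMSO share the same 2 control libraries.

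Genes around the pathway were read from lists of their own, against the same shares of all genes, 15.2% higher and 15.8% lower with romidepsin, 28% and 25.1% with quisinostat, and 22.2% and 24.1% with mivebresib. Among 17 tested hexose and monocarboxylate carriers outside the members, 8 rose and 1 fell with quisinostat, 4 rose and 1 fell with romidepsin, and 5 rose and 6 fell with mivebresib. SLC2A4, the insulin-responsive GLUT4, held 11 and 14 counts with DMSO, 57 and 56 with romidepsin, 132 and 119 with quisinostat and 30 and 28 with mivebresib, and rose with each drug (log2 FC 2.10, 3.13 and 1.22, adjusted p = 0.000593, 1.38e-05 and 0.00632). SLC16A7, the carrier MCT2, rose with quisinostat (2.02, adjusted p = 0.000351) and fell with mivebresib (-1.51, adjusted p = 0.00756), where it held 19 and 48 counts. Other carriers on the list also differed widely in mean level. With DMSO and mivebresib, SLC2A10 averaged 116 and 31.8 CPM and SLC2A13 averaged 16.8 and 53.0. SLC2A12 averaged 1.01 CPM with DMSO, 4.97 with romidepsin and 7.29 with quisinostat. A list of 13 tested genes held partners of pyruvate dehydrogenase, the mitochondrial pyruvate carriers, and the other pyruvate enzymes PC, ME1, ME2, GPT and GPT2. Among these 13, 2 rose with romidepsin, 3 rose and 2 fell with quisinostat, and 5 rose and 4 fell with mivebresib. PDP1, the phosphatase that reverses the PDK kinases, rose with romidepsin (0.84, adjusted p = 0.000215) and fell with mivebresib (-1.11, adjusted p = 1.8e-05), and gave -0.15 with quisinostat (adjusted p = 0.141).

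Regulators of glycolytic genes moved in both directions with each drug. Of 14 tested on the list of glucose sensing and other regulators, 8 rose and 2 fell with romidepsin (15.2% and 15.8% of all genes). With quisinostat 6 rose and 7 fell (28% and 25.1%), and with mivebresib 7 rose and 3 fell (22.2% and 24.1%). MYC rose with romidepsin (0.24, adjusted p = 0.0343) and mivebresib (0.78, adjusted p = 5.63e-05) and fell with quisinostat (-0.71, adjusted p = 7.39e-05). HIF1A, an oxygen-regulated factor, gave 0.06 (adjusted p = 0.587), -0.26 (adjusted p = 0.0258) and 0.23 (adjusted p = 0.0472) with romidepsin, quisinostat and mivebresib. EPAS1, another hypoxia-inducible factor, was the more abundant in DMSO libraries (mean 935.9 CPM, SD 27.57, against 156.2, SD 10.66, for HIF1A). Mivebresib libraries averaged 679.4 CPM of EPAS1 (SD 31.01), quisinostat libraries 721.3 (SD 24.87) and romidepsin libraries 1029 (SD 45.66). Under mivebresib the mean of EPAS1 was therefore below its DMSO mean, while HIF1A was higher. TXNIP, a glucose-induced inhibitor of glucose uptake, rose with each drug (0.39, 0.47 and 1.73, adjusted p = 0.0056, 0.000985 and 2.3e-06). PPARGC1A, a coactivator of mitochondrial genes, held 1 and 2 counts with DMSO, 45 and 51 with romidepsin, 138 and 130 with quisinostat and 4 and 1 with mivebresib. Of 18 hypoxia-inducible factors and targets outside glycolysis, romidepsin raised 1 and lowered 3, quisinostat raised 3 and lowered 6, and mivebresib raised 5 and lowered 5. The shares of all genes higher and lower were 15.2% and 15.8%, 28% and 25.1%, and 22.2% and 24.1% for the 3 drugs in that order.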

How the data were processed

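The mRNA of MP38 cells was sequenced as strand-specific paired libraries, 2 wells per group, and groups were taken from the sample labels. The authors deposited raw counts per gene symbol, a table of log10 values, and a quantile-normalized score whose scale is not given in the sources used here. The submitters' processing notes name the build hg38, and the study used BioJupies. The aligner, the annotation and whether counting used strand are not given in the sources used here, so genes overlapping on opposite strands are uncertain.

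Counts were analysed in R 4.3.3 with edgeR 4.0.16: filterByExpr by group, TMM factors, and 1 quasi-likelihood fit of all 8 libraries with Benjamini-Hochberg adjustment over 15085 genes. A call is an adjusted p under 0.05. Fold changes use TMM-scaled counts, and ratios between isozymes a prior count of 2. The log10 table was not tested. Lengths are merged exons of basic protein-coding transcripts (GENCODE 29), and promoter windows are RefSeq's (GRCh38.p14). Figures used matplotlib. DESeq2 1.42.0, limma 3.58.1 (voom, and the authors' score), other scalings and filters, a replicate block and each library left out were alternatives. The fits were tested on simulated data. There edgeR recovered 46.3% of changes of 0.5 on the log2 scale, 83.6% of 1 and 98.5% of 2, with 5 false calls. Changes near 0.5 can therefore be missed. The simulation changed only 67, 67 and 66 genes of these sizes, with 14750 tested, in the quisinostat group alone. Every simulated gene had the same spread. In the data 28% of all genes were higher and 25.1% lower with quisinostat, and the DMSO libraries differed most. The recovery and false-call figures may therefore not hold for these comparisons.

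All 32 members are named. Values in every library are given for members with an adjusted p under 0.05 and a log2 FC of at least 1 in size with a drug, for partners in an isozyme pair and for some others chosen after their values were seen. The members and lists were chosen with earlier results of these data known. The role groups were set after the values were seen. Counting error is small at this depth, and precision is limited by 2 libraries a group. Differences between the 2 libraries of a group correlated weakly between groups (r from -0.162 to 0.158 over genes), and the main fit did not pair libraries by number. With 1 difference per group, this check cannot settle whether some groups shared a batch.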

Additional observations from a re-analysis of the deposited data

How the results depend on the processing

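Of the 49 calls against DMSO, 26 held under each of the 16 other settings that gave a fold change. The other 23 were lost under at least 1, and 23 of the 47 comparisons not called were gained under at least 1. No called comparison changed sign. With limma on the authors' quantile-normalized score, read for calls alone, fewer members were called: 3 higher and 0 lower with romidepsin, 3 and 0 with quisinostat, 3 and 1 with mivebresib, 3 and 0 for quisinostat against romidepsin, 2 and 2 for mivebresib against romidepsin, and 4 higher for mivebresib against quisinostat. At an unadjusted p under 0.05 limma gave 4, 0 and 5 where it gave 0 lower (in the same order), where edgeR called 6, 14 and 8. The share of all genes that limma called on that score was not worked out, and the cause of the lower counts was not tested. Without TMM factors, 2 were lower with romidepsin, 7 lower with quisinostat and 9 higher for quisinostat against romidepsin, and upper-quartile factors gave 2 lower with romidepsin. A mean CPM of at least 5 gave 3 lower with romidepsin. With only the 4 libraries of the comparison, 4 were higher and 1 lower with romidepsin, 3 higher with mivebresib, and 14 lower for quisinostat against romidepsin. With 1 library left out, where a lone library is assumed to vary like the other groups, romidepsin gave 3 to 12 higher and 1 to 9 lower, quisinostat 8 to 16 lower, mivebresib 3 to 7 higher and 5 to 11 lower, and quisinostat against romidepsin 4 to 14 lower. A replicate block gave 7 higher and 5 lower with romidepsin, 9 and 13 with quisinostat, and 5 and 7 with mivebresib, though the numbers are not known to pair the samples.

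The sign of the log2 FC turned in 36 of 1531 recalculations, each of a comparison not called in either fit. Without TMM factors these were GPI (0.081) and SLC16A1 (0.0539) with quisinostat, ENO2 with mivebresib (0.0181) and LDHB with romidepsin (0.0079). Upper-quartile factors gave GPI 0.0107 with quisinostat, ENO2 0.0439 and LDHA 0.0136 with mivebresib, and LDHB 0.0205 and PDHA1 0.0048 with romidepsin. ENO2 with mivebresib was 0.026 at a mean CPM of at least 5 and 0.0043 with 4 libraries, and PDHA1 with quisinostat was -0.0022 with no filter. With 1 library left out, the mivebresib log2 FC ran from -0.2036 to 0.0174 for HK1, -0.0463 to 0.0804 for PFKL, -0.0132 to 0.1119 for PFKP, -0.1303 to 0.0191 for PFKFB4, -0.0329 to 0.0263 for ENO2, -0.1313 to 0.0579 for LDHA, -0.2276 to 0.3118 for SLC2A1 and -0.0148 to 0.5033 for SLC16A3. For romidepsin it ran from -0.0144 to 0.1165 for ALDOC, -0.4634 to 5.6327 for PGAM2, -0.1439 to 0.0438 for LDHB, -0.4283 to 0.0886 for SLC2A1, -0.1621 to 0.3337 for SLC16A3 and -0.1055 to 0.2382 for PDK1. For quisinostat it ran from -0.0997 to 0.1899 for HK2, -0.5695 to 5.4943 for PGAM2, -0.4268 to 0.1817 for SLC16A1 and -0.0072 to 0.04 for PDHA1. With 2 libraries a group, leaving 1 out cannot move an isozyme ratio past its own SD, so those values carry no verdict.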
